A study of Mus musculus with 6 samples.

Results

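The genes described here are 7 genes of muscle protein breakdown: the ubiquitin ligases Fbxo32, Trim63, Trim55 and Trim54, the transcription factors Foxo1 and Foxo3, and the growth factor Mstn. They were picked by gene name from the 54532 genes of the deposited table, and each name matched a single row. RNA was sequenced from the hearts of 6 mice that carried loxP-flanked Mrps5 alleles (Mrps5 fl/fl), Mrps5 being a gene for a protein of the mitochondrial ribosome. The 3 cKO mice (Mrps5 fl/fl; MCM) also carried MCM, a transgene in which the αMHC promoter drives the tamoxifen-activated recombinase MerCreMer in cardiomyocytes, and the 3 Ctrl mice (Mrps5 fl/fl) lacked it. Both groups received tamoxifen by intraperitoneal injection, 45 mg per kg per day for 5 days from 8 weeks of age, and hearts were taken 12 weeks later according to the labels (the study's methods give another age). No Ctrl mouse carried MCM alone, so an effect of the recombinase cannot be told apart from that of the deletion. The methods describe the RNA as ventricular, and cells other than cardiomyocytes, in which the promoter is not active, were also present in it.

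Muscle breaks down its contractile proteins mainly by tagging them with ubiquitin for the proteasome. Fbxo32 encodes atrogin-1 (MAFbx), the substrate-binding F-box subunit of an SCF ubiquitin ligase, and Trim63 encodes MuRF1, a RING-finger ligase of the sarcomere. Both are the classical markers of wasting skeletal muscle and restrain growth of the heart. Trim55 (MuRF2) and Trim54 (MuRF3) are close relatives of MuRF1 that bind microtubules and the sarcomere. FOXO transcription factors switch on Fbxo32, Trim63 and autophagy genes when insulin signalling is low, because the kinase AKT otherwise keeps them out of the nucleus. Myostatin, the product of Mstn, is a secreted member of the TGF-beta family that limits muscle size through activin receptors and SMAD2 and SMAD3.

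Before the results, a few properties of the libraries bear on them. FPKM, the unit of the table, is the number of fragments per kilobase of gene, scaled to a library size, so that levels can be compared between genes. The library size implied by the deposited values was not the number of reads assigned to genes. It was 0.913 to 0.980 times that number in Ctrl hearts and 1.06 times in each cKO heart. Compared with scaling by assigned reads, this lowers cKO values against Ctrl values. Wherever 3 values of a group are listed, they are those of replicates 1, 2 and 3 in that order. Between 15989322 and 24875499 reads were assigned to genes per heart. Mrps5 was at 5.20 to 6.45 FPKM in the Ctrl and 1.12 to 1.31 FPKM in the cKO hearts. cKO replicate 2 stood apart: the mean of its Y-linked genes was 0 FPKM, against 7.61 to 8.79 FPKM in the other 5 hearts. The study reports using male mice only. Ctrl replicate 1 held most atrial marker RNA among Ctrl hearts (a summed level of 2057 FPKM over 6 genes, against 290 and 128 FPKM in replicates 2 and 3), and the cKO hearts spanned 576 to 1677 FPKM. Of 10 cardiomyocyte markers 6 were lower in cKO and 0 higher, beside 17.0% and 16.3% of all genes tested. Their summed level was 19101 to 23749 FPKM in Ctrl and 12188 to 19639 FPKM in cKO. These sums overlapped, since cKO replicate 2 (19639 FPKM) lay above Ctrl replicates 1 and 3. In such bulk tissue, fewer cells of a type and less RNA per cell cannot be told apart. Of 9 markers of fast skeletal muscle, 1 (Tnni2) reached the mean of 0.5 FPKM required for testing, Myh1 was at 0 in every heart, and their summed level was 1.72 to 3.11 FPKM in Ctrl and 1.46 to 1.73 FPKM in cKO.

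The promoters of Trim63 and Trim54 are shown because these close relatives gave different results: Trim63 fell in the cKO hearts and Trim54 did not pass the test. Each stretch is the 250 bases before the RefSeq start site, from GRCm38.p6, with capitals for letters that match a searched motif. They lie at chr4:134314870-134315119 for Trim63 and chr5:31116362-31116611 for Trim54, both on the plus strand. The Trim63 stretch reaches the gene start given below (134315120). For Trim54 the gene start given below lies further on (31116712), and the bases between were not searched.
Trim63: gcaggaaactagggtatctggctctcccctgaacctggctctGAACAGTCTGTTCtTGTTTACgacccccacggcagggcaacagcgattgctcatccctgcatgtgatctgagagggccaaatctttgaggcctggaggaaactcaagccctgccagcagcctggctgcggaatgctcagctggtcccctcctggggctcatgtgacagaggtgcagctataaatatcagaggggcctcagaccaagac
Trim54: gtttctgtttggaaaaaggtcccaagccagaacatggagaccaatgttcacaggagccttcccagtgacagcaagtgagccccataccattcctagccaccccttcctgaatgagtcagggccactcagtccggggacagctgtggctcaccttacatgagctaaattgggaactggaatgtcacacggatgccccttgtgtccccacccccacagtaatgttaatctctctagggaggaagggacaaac
The FOXO motif GTAAACA was found on the other strand of the Trim63 stretch, as TGTTTAC starting 194 bases before the start site. Ending 1 base before it, and not overlapping it, lay GAACAGTCTGTTC, starting 208 bases before the start site. It holds GAACA and TGTTC 3 bases apart, a form of the glucocorticoid receptor motif (AGAACA and TGTTCT, 3 bases apart) that was shortened after this sequence had been seen. The full form was not matched. The Trim54 stretch held no match to any motif searched on both strands, which were these, the E-box CACGTG, the MEF2 motif (CTA and TAG, 4 bases apart) and the SMAD motif GTCTAGAC, and neither did those of Foxo1, Foxo3 and Mstn. Of 32851 RefSeq promoters of the same length, 3.17% held the FOXO motif, 0.00913% the full and 0.0396% the short glucocorticoid receptor motif, 6.02% the E-box, 3.20% the MEF2 and 0.167% the SMAD motif. GC content was 56.8% for Trim63 and 52.8% for Trim54, with a median of 52.4% over all promoters.

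Of the 7 genes, 6 passed the filter on low values (0.5 FPKM or more as the mean of all hearts) and were tested. Foxo1, Foxo3 and Trim63 were lower in cKO hearts, 0 were higher, and Fbxo32, Trim55 and Trim54 did not pass the threshold (limma adjusted p under 0.05). Among all 12944 genes tested, 17.0% were lower, 16.3% were higher and 33.3% were called in either direction. The hearts of the 2 groups did not overlap for the 3 genes called lower, while over all tested genes 26.4% lay wholly below Ctrl in this way and 24.8% wholly above. The median log2 fold change was -0.57 over the 6 genes and -0.02 over all genes tested.

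**Figure D1:**
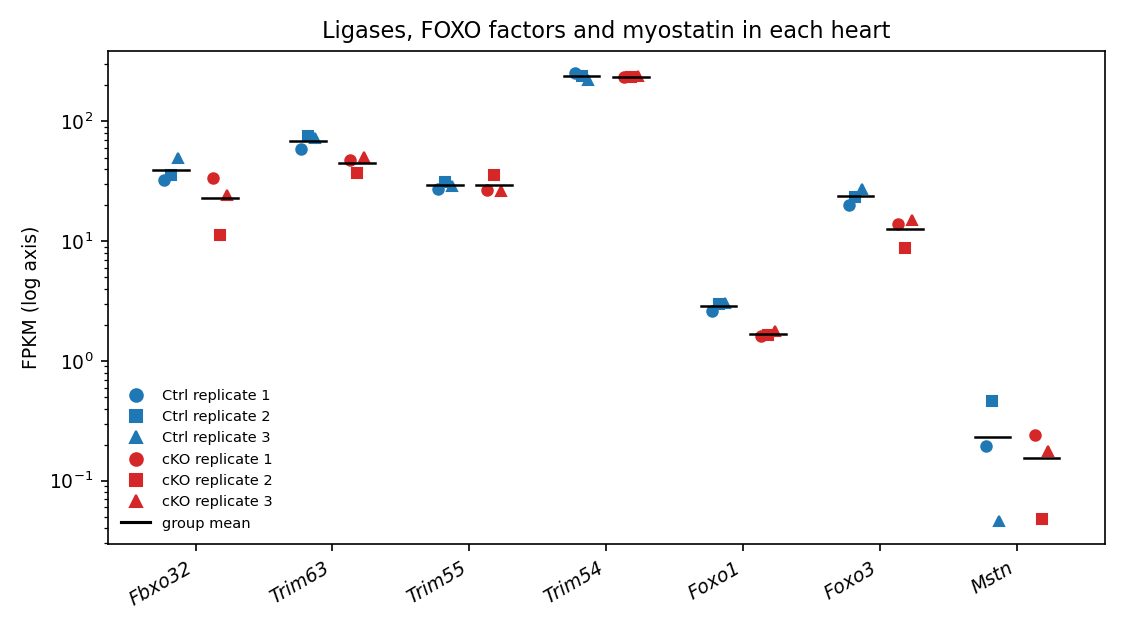
FPKM (log axis) of the 7 genes in each heart, with Ctrl in blue and cKO in red, a marker shape per replicate number and a line at each group mean (n = 3). Trim63, Foxo1 and Foxo3 lie lower in every cKO heart than in any Ctrl heart, the Fbxo32 values overlap through cKO replicate 1 at 33.9 FPKM, Trim54 is near 237 FPKM in both groups and Mstn is under 0.5 FPKM in all hearts.

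Levels were ordered in Ctrl hearts as Trim54, Trim63, Fbxo32, Trim55, Foxo3, Foxo1 and Mstn, from means of 238 to 0.234 FPKM, and no neighbours in this order overlapped between hearts. Trim55 and Foxo3 came closest, with the lowest Trim55 value at 27.4975 and the highest Foxo3 value at 27.4802 FPKM. In cKO hearts Trim55 stood before Fbxo32. There, the ranges of Trim55 (26.1 to 35.5 FPKM) and Fbxo32 (11.2 to 33.9 FPKM) overlapped, as did those of Fbxo32 and Foxo3 (8.78 to 15.1 FPKM). Trim54 ranked 200 of 12944 tested genes by mean FPKM, Trim63 752, Fbxo32 1286, Trim55 1371, Foxo3 2215 and Foxo1 8670.

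Trim63 (MuRF1), the ligase that marks troponin I and other sarcomere proteins, fell to 65.4% of its Ctrl mean. The gene (ENSMUSG00000028834) lies at chr4:134315120-134329629 (GRCm38, as for all genes given here) on the plus strand, with 9 exons in its longest transcript. Ctrl replicates 1, 2 and 3 had 58.6, 76.0 and 72.4 FPKM and cKO replicates 1, 2 and 3 had 47.7, 36.9 and 50.7 FPKM, from 2293 to 4976 reads per heart. All 3 cKO hearts lay below the lowest Ctrl heart, and cKO replicate 2 was lowest. Means were 69.0 ± 9.20 and 45.1 ± 7.24 FPKM (SD, n = 3 each), which on the log2(FPKM + 1) scale is a fold change of -0.61 (SE 0.148, limma adjusted p = 0.0208). The call was lost without Ctrl replicate 2 (-0.53, adjusted p = 0.0704), without Ctrl replicate 3 (-0.57, adjusted p = 0.0705) and when no filter was applied (adjusted p = 0.0537).

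Fbxo32 (atrogin-1) had a lower mean in cKO, 58.6% of that in Ctrl, but did not pass the test. It (ENSMUSG00000022358) lies at chr15:58175879-58214932 on the minus strand and has 9 exons. In Ctrl hearts it was at 32.7, 35.9 and 49.6 FPKM, from 4345 to 8366 reads. In cKO hearts it was at 33.9, 11.2 and 24.1 FPKM, from 1831 to 4237 reads. The groups overlapped, since cKO replicate 1 lay above Ctrl replicate 1, and the cKO hearts were widely spread, with an SD of 11.4 around a mean of 23.1 FPKM. The log2 fold change was -0.85 with a 95% interval of -1.73 to 0.03, that is 0.302 to 1.02 times the Ctrl level (adjusted p = 0.120). Without cKO replicate 1 it passed (-1.18, adjusted p = 0.0479), and without cKO replicate 2 it was -0.42 (adjusted p = 0.179).

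The other MuRF genes stayed near their Ctrl levels. Trim55 (MuRF2; ENSMUSG00000060913, chr3:19644474-19692421, plus strand, 10 exons) had Ctrl values of 27.5, 31.5 and 28.8 and cKO values of 26.9, 35.5 and 26.1 FPKM. The groups overlapped and cKO replicate 2, lowest for Trim63, was highest here. The interval of its log2 fold change ran from -0.30 to 0.30, or 0.811 to 1.23 times the Ctrl level (limma adjusted p = 0.999). Trim54 (MuRF3; ENSMUSG00000062077, chr5:31116712-31137630, plus strand, 9 exons) had Ctrl values of 253, 238 and 222 and cKO values of 236, 234 and 240 FPKM. Its cKO hearts all lay within the Ctrl range, and the interval of the log2 fold change was -0.19 to 0.18, or 0.877 to 1.13 times the Ctrl level (adjusted p = 0.968).

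Within a heart, the MuRF genes can be set against each other without regard to library scaling. Trim63 made up 17.3%, 22.0% and 22.4% of the summed FPKM of the 3 MuRF genes in Ctrl replicates 1, 2 and 3. In cKO replicates 1, 2 and 3 the share was 15.4%, 12.1% and 16.0%. The shares did not overlap, with means of 20.6 ± 2.85% and 14.5 ± 2.12% (SD, n = 3 each). Trim54 took 68.7% to 74.6% in Ctrl and 75.8% to 76.4% in cKO, also without overlap, and Trim55 took 8.10% to 9.13% and 8.23% to 11.6%, with overlap. The sum of all MuRF genes was 324 to 345 FPKM in Ctrl and 306 to 317 FPKM in cKO. Per Trim63 there were 0.558, 0.472 and 0.685 of Fbxo32 in Ctrl hearts, and 0.711, 0.304 and 0.476 in cKO hearts, so that the ratio of the 2 wasting markers overlapped between groups. These ratios are descriptions and were not tested.

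**Figure D2:**
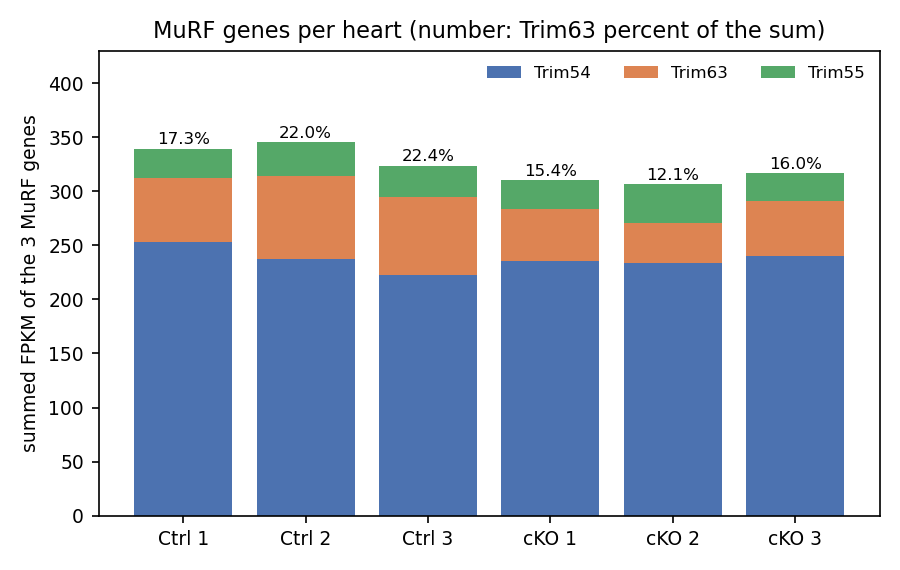
Summed FPKM of the 3 MuRF genes in each heart as stacked bars (Trim54 blue, Trim63 orange, Trim55 green), with the Trim63 percentage of the sum above each bar. The Trim63 share is 17.3% to 22.4% in Ctrl and 12.1% to 16.0% in cKO hearts, while the Trim54 segment is of similar height in all 6.

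Both FOXO members fell. Foxo1 (ENSMUSG00000044167, chr3:52268336-52353221, plus strand, 3 exons) encodes the factor best known from insulin control of metabolism. It had Ctrl values of 2.61, 2.99 and 3.06 and cKO values of 1.61, 1.66 and 1.78 FPKM, from 236 to 641 reads. Every cKO heart lay below every Ctrl heart with little spread in either group, and 58.4% of the Ctrl mean was left. On the log2 scale the change was -0.53 (SE 0.0791, limma adjusted p = 0.00379), the only call among the 7 genes that held in all 15 alternatives run. The added 1 FPKM compresses a change at this level, and voom on recovered reads gave -0.74.

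Foxo3 (ENSMUSG00000048756, chr10:42181841-42276755, minus strand, 4 exons), the FOXO factor most tied to autophagy and to atrogin-1 in muscle, was at 20.1, 23.3 and 27.5 FPKM in Ctrl hearts. In cKO hearts it was at 13.9, 8.78 and 15.1 FPKM. The groups did not overlap and 53.2% of the Ctrl mean was left, with cKO replicate 2 again lowest. The change of -0.88 on the log2 scale (SE 0.203, adjusted p = 0.0170) missed the threshold without Ctrl replicate 2 (-0.89, adjusted p = 0.0524) or without Ctrl replicate 3 (-0.77, adjusted p = 0.0590). Foxo1 was 0.111 to 0.1296 times Foxo3 in Ctrl and 0.116 to 0.189 times in cKO hearts, with overlap.

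The remaining FOXO genes of the table, Foxo4 and Foxo6, fell too. Foxo4 had Ctrl values of 26.0, 24.3 and 23.5 and cKO values of 14.4, 10.8 and 17.0 FPKM (log2 fold change -0.79, SE 0.152, limma adjusted p = 0.00930). Foxo6 was low, with Ctrl values of 0.943, 1.23 and 0.806 and cKO values of 0.226, 0.295 and 0.532 FPKM (-0.56, SE 0.124, adjusted p = 0.0146), and its call was lost without Ctrl replicate 1 and cKO replicate 2 together (adjusted p = 0.0792). The added 1 FPKM weighs most at such levels, and Foxo6 was at -1.32 with a pseudocount of 0.1 and at -1.45 with voom. No heart overlapped the other group for either gene. Foxo6 passed the filter through its Ctrl hearts, since its cKO mean was 0.351 FPKM. It rested on 47 to 67 reads per Ctrl heart and 10 to 35 per cKO heart. The 4 FOXO genes were at 35.3% (Foxo6) to 58.4% of their Ctrl means.

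Other values of these hearts are set beside the members here. In cKO replicate 2, the heart without Y-linked RNA, Trim63, Foxo3 and the uncalled Fbxo32 were at their lowest. Foxo1 was lowest in cKO replicate 1 (1.61 FPKM, against 1.66 FPKM in replicate 2). With cKO replicate 2 left out, the log2 fold changes were -0.47 for Trim63, -0.66 for Foxo3 and -0.53 for Foxo1, each still past the threshold (limma adjusted p = 0.0354, 0.0161 and 0.00984). Without cKO replicate 2 and Ctrl replicate 1 together they were -0.58, -0.77 and -0.58 (adjusted p = 0.0172, 0.0160 and 0.0193). Endothelial markers were lower as well: 4 of 6 passed the threshold and 0 were higher, with summed levels of 131 to 148 FPKM in Ctrl and 86.2 to 102 FPKM in cKO hearts. For this and the marker counts below, the shares over all genes tested were 17.0% lower and 16.3% higher. The part of the cardiomyocyte and endothelial markers in these results was not tested. Of 8 fibroblast markers 3 were higher and 1 lower (summed levels 162 to 189 and 163 to 195 FPKM), of 6 macrophage markers 1 was lower (250 to 334 and 192 to 288 FPKM), and of 6 atrial and 5 blood markers 0 were called (blood: 880 to 2056 and 585 to 1588 FPKM). Of 3 brown fat markers tested 1 was higher, and Ucp1 was above 1 FPKM in 2 hearts, at 3.49 FPKM in Ctrl replicate 1 and 5.25 FPKM in cKO replicate 3.

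Kinases and other proteins that control FOXO factors moved in both directions. Of 10 listed genes 9 were tested, 3 were higher and 2 lower, beside 16.3% and 17.0% of all genes, with a median log2 fold change of -0.17. Among the AKT kinases, which phosphorylate FOXO and hold it in the cytoplasm, Akt1 rose (0.24, limma adjusted p = 0.0390) while Akt2 fell (-0.35, adjusted p = 0.0282). The Akt2 call held in 9 of 15 alternatives (adjusted p up to 0.1003) and was lost without any single Ctrl heart. Akt1 had Ctrl values of 49.6, 54.4 and 51.2 and cKO values of 61.9, 59.6 and 61.5 FPKM, and its call held in 7 of 15 alternatives (adjusted p up to 0.133). Pdpk1, the kinase that activates AKT, rose (0.29, adjusted p = 0.0244, held in 10 of 15, with up to 0.128). Stk4, which encodes the stress kinase MST1 that sends FOXO to the nucleus, rose from 3.16 to 3.53 FPKM in Ctrl to 4.73 to 5.83 FPKM in cKO (0.49, adjusted p = 0.00795) under all 15 alternatives.

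Textbook targets of FOXO factors other than the ligases showed more decreases than increases. All 26 were tested, of which 11 were lower and 3 higher, beside 17.0% and 16.3% of all genes, with a median log2 fold change of -0.31. Bnip3, a mitophagy receptor, had Ctrl values of 114, 102 and 157 and cKO values of 59.1, 28.4 and 61.1 FPKM (-1.36, SE 0.308, limma adjusted p = 0.0160). Pink1, the kinase that marks damaged mitochondria, had Ctrl values of 284, 287 and 277 and cKO values of 140, 124 and 164 FPKM (-0.99, SE 0.111, adjusted p = 0.00176). Neither gene overlapped between groups. Fbxo31, an F-box gene, fell by 1.19 (the log2 fold change; adjusted p = 0.00279) and Sesn1, a sestrin that restrains mTORC1, by 0.95 (adjusted p = 0.0270). Without Ctrl replicate 3, 6 rather than 11 targets were lower, and Bnip3 was no longer among them (adjusted p = 0.0554), nor was Sesn1, whose call held in 11 of 15 alternatives (adjusted p up to 0.0872).

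The 3 targets that rose were the translation inhibitor Eif4ebp1, the cell cycle inhibitor Cdkn1a and Fbxo30. Eif4ebp1 had Ctrl values of 42.6, 41.9 and 30.8 and cKO values of 114, 89.3 and 99.1 FPKM (1.38, SE 0.150, limma adjusted p = 0.00161). Cdkn1a had Ctrl values of 15.2, 25.1 and 28.9 and cKO values of 57.3, 44.1 and 44.1 FPKM (1.08, SE 0.233, adjusted p = 0.0137). Fbxo30 encodes MUSA1, a ligase of wasting muscle, and rose by 0.48 (adjusted p = 0.0103). The groups did not overlap for these genes, and each kept its call in all 15 alternatives.

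**Figure D3:**
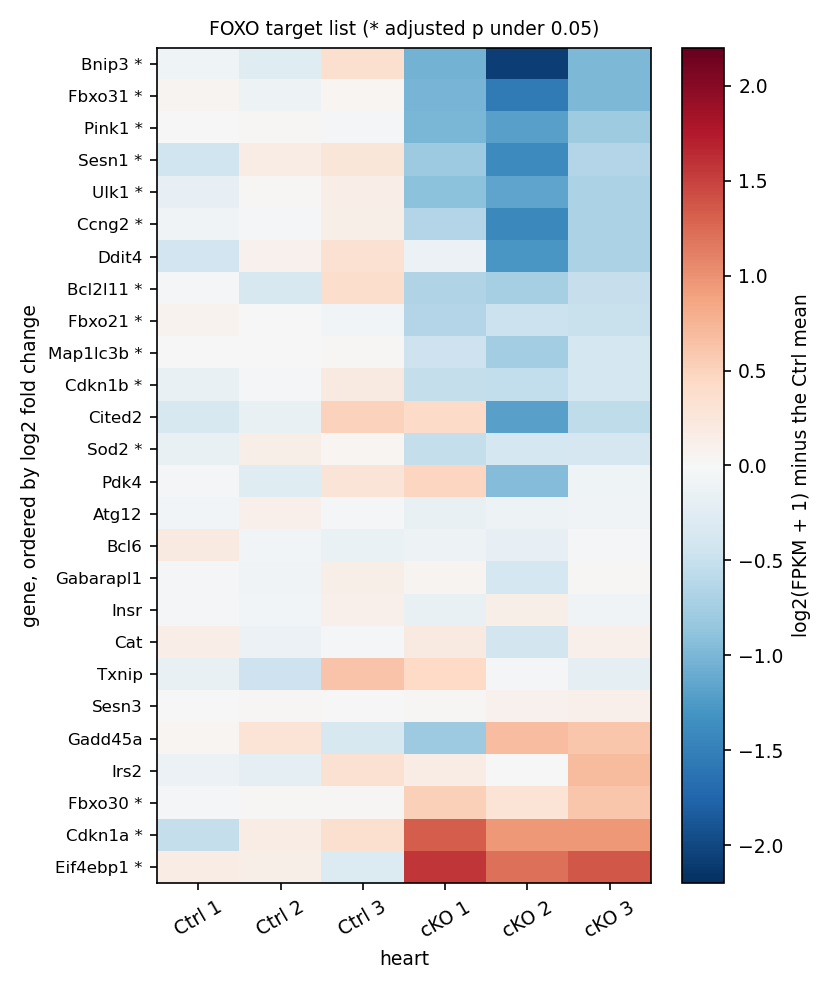
Change of 26 listed FOXO targets in each heart, as log2(FPKM + 1) minus the mean of the 3 Ctrl hearts (blue below, red above), with genes ordered by log2 fold change and a star where the limma adjusted p was under 0.05. The 11 starred genes in the upper rows are blue in all cKO hearts, most deeply for Bnip3 in cKO replicate 2, with the unstarred Ddit4 and Cited2 between them, and Fbxo30, Cdkn1a and Eif4ebp1 at the bottom are red in all 3.

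Mstn itself (ENSMUSG00000026100, chr1:53061640-53068079, plus strand, 3 exons) was close to the limit of detection in all hearts. Ctrl replicates 1, 2 and 3 held 10, 26 and 3 reads of it (0.194, 0.462 and 0.0458 FPKM). There were 11, 3 and 12 reads in cKO replicates 1, 2 and 3 (0.240, 0.0475 and 0.176 FPKM). The highest and the lowest value were both in Ctrl hearts, and the gene was not tested because its mean of 0.194 FPKM was under the filter. A difference between groups was not detectable at this depth. With no filter the log2 fold change was -0.09 (limma adjusted p = 0.726), but the added 1 FPKM holds it near 0 at such levels. The cKO mean was 66.1% of the Ctrl mean, from these few reads.

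Among the relatives of myostatin the activin subunit gene Inhba rose strongly. Inhba encodes the chain of activin A, which uses the same receptors. It had Ctrl values of 0.591, 0.361 and 1.203 and cKO values of 6.16, 4.08 and 5.36 FPKM, so the lowest cKO heart lay well above the highest Ctrl heart. Its log2 fold change of 1.87 (SE 0.201, limma adjusted p = 0.00156) kept its call in all 15 alternatives and was 2.81 with a pseudocount of 0.1 and 2.98 with voom. Gdf11, the closest relative of Mstn, had Ctrl values of 0.568, 0.616 and 0.641 and cKO values of 0.335, 0.622 and 0.450 FPKM (-0.14, adjusted p = 0.324). Inhbb (0.17, adjusted p = 0.630) and Inha (-0.16, adjusted p = 0.306) did not pass either. So 1 of 4 ligands was higher and 0 were lower, beside 16.3% and 17.0% of all genes.

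Genes that bind or process the ligands were mixed, with 2 higher and 2 lower of 6 tested out of 10 listed, beside 16.3% and 17.0% of all genes. Fstl3, a secreted antagonist of activin and myostatin, had Ctrl values of 2.10, 1.71 and 1.61 and cKO values of 9.64, 7.497 and 5.77 FPKM (1.60, SE 0.166, limma adjusted p = 0.00148), without overlap and in all 15 alternatives. Fstl1, a more distant relative, rose by 0.39 (adjusted p = 0.0311), and its call held in 7 of 15 (adjusted p up to 0.119). Furin, the protease that cuts the proforms, had Ctrl values of 16.2, 19.1 and 24.3 and cKO values of 14.7, 8.67 and 12.7 FPKM (-0.69, adjusted p = 0.0420), held in 9 of 15 (adjusted p up to 0.121). Dcn, for the matrix protein decorin that binds myostatin, fell by 0.59 (adjusted p = 0.0185) and is also 1 of the fibroblast markers above. Fst, for follistatin, was at 0.0811 to 0.208 FPKM and, with Wfikkn1, Tll1 and Tll2, was under the filter, while Wfikkn2 (-0.29, adjusted p = 0.0716) and Bmp1 (0.14, adjusted p = 0.338) were tested and did not pass.

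Of the receptors and SMADs, 11 of 12 were tested, 0 were higher and 2 lower, beside 16.3% and 17.0% of all genes. Both genes that were lower encode type II activin receptors. Acvr2b had Ctrl values of 0.815, 0.661 and 0.842 and cKO values of 0.256, 0.229 and 0.364 FPKM (-0.47, SE 0.0894, limma adjusted p = 0.00903), with no overlap and a call in 11 of the 12 alternatives in which it passed the filter. With a pseudocount of 0.1 the Acvr2b change was -1.20 and with voom -1.41. Acvr2b passed the filter through its Ctrl hearts, since its cKO mean was 0.283 FPKM. It rested on 54 to 80 reads per Ctrl heart and 17 to 36 per cKO heart. Acvr2a had Ctrl values of 3.55, 3.71 and 3.60 and cKO values of 2.83, 3.07 and 3.01 FPKM (-0.22, adjusted p = 0.0439), but its call held in only 3 of 15 (adjusted p up to 0.132). The type I receptor Acvr1b (-0.17, adjusted p = 0.0963) and the signal transducers Smad2 (0.03), Smad3 (0.18) and Smad4 (0.00421) did not pass. The median log2 fold change of the list was -0.05.

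**Figure D4:**
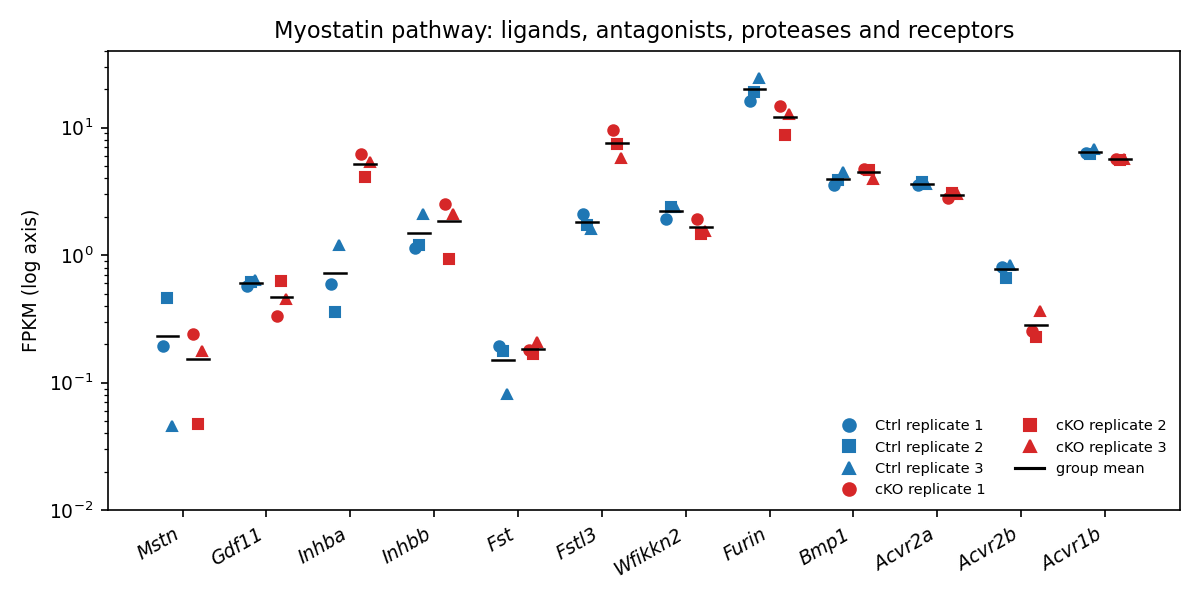
FPKM (log axis) of Mstn, related ligands, antagonists, proteases and receptors in each heart, Ctrl in blue and cKO in red, with a line at each group mean (n = 3). Inhba and Fstl3 are higher in every cKO heart than in any Ctrl heart, Acvr2a and Acvr2b are lower in every cKO heart, and Mstn and Fst are under 0.5 FPKM throughout.

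Other ubiquitin ligases of muscle were called in both directions, with 3 higher and 8 lower of 22, beside 16.3% and 17.0% of all genes, and a median log2 fold change of -0.04. Fbxo40, a muscle F-box gene that targets the insulin signalling adaptor IRS1, had Ctrl values of 38.4, 43.9 and 37.4 and cKO values of 54.0, 70.9 and 58.4 FPKM (0.60, SE 0.119, limma adjusted p = 0.0103). Ubr4, an N-recognin, rose by 0.51 (adjusted p = 0.00318), and the third increase was Fbxo30. Fbxo31 had Ctrl values of 34.6, 30.8 and 34.3 and cKO values of 15.8, 10.6 and 16.2 FPKM (-1.19, SE 0.158). Asb2 (-0.68, adjusted p = 0.0277), Ubr2 (-0.62, adjusted p = 0.0146) and Obsl1, a cytoskeletal adaptor of a cullin ligase (-0.60, adjusted p = 0.00367), followed. The Asb2 call held in 10 of 15 alternatives (adjusted p up to 0.0888) and the Ubr2 call in 13 (up to 0.0535). The number lower was 4 without Ctrl replicate 2 and also without Ctrl replicate 3, and Fbxo30, Fbxo31 and Fbxo21 are members of this list and of the FOXO targets.

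For the enzymes that feed the ligases, 18 genes of the SCF core, E1 and E2 enzymes and ubiquitin were tested, of which 6 were higher and 3 lower, beside 16.3% and 17.0% of all genes (median 0.12). Rps27a, for ubiquitin joined to a ribosomal protein, had Ctrl values of 31.4, 31.0 and 46.0 and cKO values of 48.6, 102 and 72.9 FPKM (0.99, limma adjusted p = 0.0335), without overlap. Ube2b, the E2 enzyme long known to rise in wasting muscle, had Ctrl values of 146, 148 and 142 and cKO values of 78.3, 64.6 and 88.4 FPKM (-0.92, SE 0.118, adjusted p = 0.00259), without overlap and in all 15 alternatives. Ube2d1 (-0.44, adjusted p = 0.0115) and the deubiquitinase Usp19 (-0.24, adjusted p = 0.0406) fell, and Ube2d3 rose (0.35, adjusted p = 0.00987). Rps27a kept its call in 9 and Usp19 in 4 of 15 alternatives, with adjusted p up to 0.137 and 0.153.

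Of the upstream regulators of the ligases, 15 were tested, 1 was higher and 3 were lower, beside 16.3% and 17.0% of all genes, with a median log2 fold change of -0.25. Tnfrsf12a, the receptor for the wasting cytokine TWEAK, had Ctrl values of 36.8, 34.5 and 19.1 and cKO values of 99.0, 175 and 85.3 FPKM (1.94, SE 0.330, limma adjusted p = 0.00607). Klf15, a glucocorticoid-induced factor that raises Fbxo32 and Trim63 in skeletal muscle, fell by 1.00 (adjusted p = 0.0137), the deacetylase gene Hdac4 by 0.72 (adjusted p = 0.00337, and -1.16 with voom) and the coactivator gene Ppargc1a by 0.64 (adjusted p = 0.0143). The glucocorticoid receptor gene Nr3c1 was at 9.40 to 9.998 FPKM in Ctrl and 6.12 to 8.99 FPKM in cKO and did not pass (-0.29, adjusted p = 0.133; named after its values were seen, for the motif in the Trim63 promoter). Myog, named for its level and known to drive the ligases in denervated skeletal muscle, had 0 FPKM in every heart.

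Reported substrates and partners of the ligases split into 4 higher and 9 lower of 20, beside 16.3% and 17.0% of all genes, with a median of -0.33. When hearts were left out, 3 to 4 were higher and 4 to 12 lower. Tcap, for the titin cap telethonin that binds MuRF1, had Ctrl values of 2442, 2114 and 2604 and cKO values of 656, 776 and 659 FPKM (-1.77, SE 0.117, limma adjusted p = 0.000384), without overlap. Tnni3, for cardiac troponin I, fell by 0.64 (adjusted p = 0.00599) and Fhl2 by 1.05 (adjusted p = 0.0165, held in 13 of 15 alternatives). The phosphatase gene Dusp1 fell by 0.74 (adjusted p = 0.0375, held in 9 of 15). Ankrd1, for the titin-binding stress protein CARP, had Ctrl values of 837, 573 and 300 and cKO values of 1596, 3620 and 1594 FPKM (2.00, SE 0.449, adjusted p = 0.0156). The Ankrd1 call held in 14 of 15 alternatives. Sqstm1, for the autophagy adaptor p62, rose by 0.82 (adjusted p = 0.00279) and Myh7 by 0.80 (adjusted p = 0.0309, held in 11 of 15, with up to 0.0817). The desmin gene Des rose by 0.49 (adjusted p = 0.0143, held in 13 of 15). Of the genes that fell, Tnni3, Tnnt2 and Myl2 are also among the cardiomyocyte markers.

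**Figure D5:**
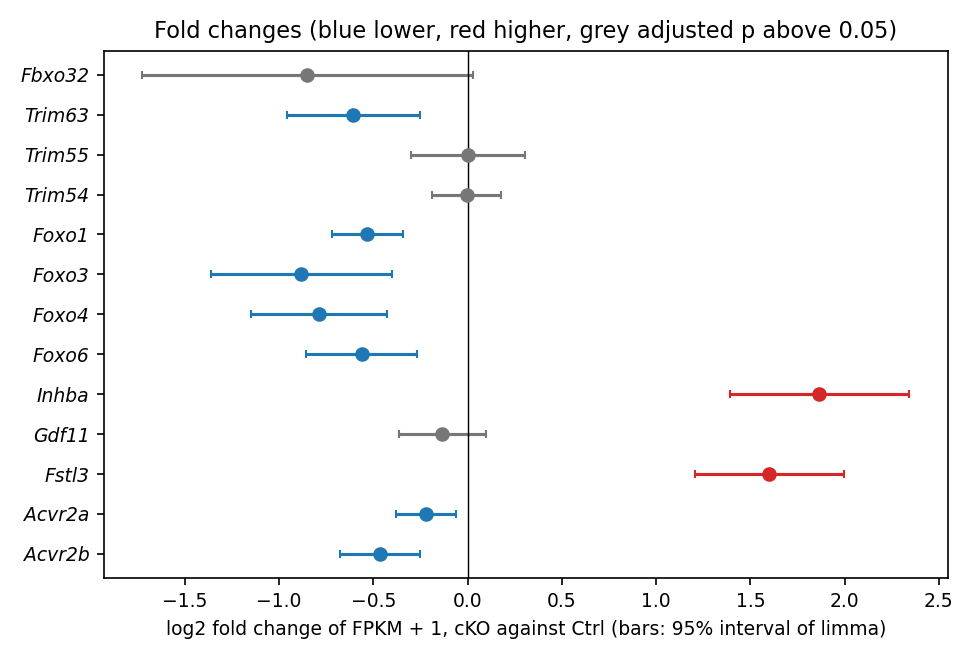
Log2 fold change of FPKM + 1 (cKO against Ctrl) with its 95% limma interval for the tested ligase, FOXO and selected myostatin pathway genes, blue where lower, red where higher and grey where the adjusted p was above 0.05. Trim63 and the 4 FOXO genes lie between -0.88 and -0.53, the Fbxo32 interval of -1.73 to 0.03 includes 0, Trim55 and Trim54 centre on 0, and Inhba (1.87) and Fstl3 (1.60) lie far to the right.

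To show which genes behaved most like each member, log2(FPKM + 1) values centred on the mean of the 6 hearts were compared with those of 5512 well-expressed protein-coding genes, and likeness is the mean absolute difference over hearts. Nearest to Trim63 was Immp1l, for a mitochondrial inner membrane peptidase (0.0312), followed by Spsb1 and Ablim3. Klhl24 (0.0574), Tfdp2 and the mtDNA-encoded mt-Co3 were nearest to Foxo3, and Trafd1 (0.0125), Lrp5 and Plcg1 to Foxo1. The added 1 FPKM compresses the change of Foxo1 more than that of these neighbours. Foxo1 means were 2.88 (Ctrl) and 1.68 FPKM (cKO), and Trafd1 means 13.6 and 9.07 FPKM. For Fbxo32 the nearest genes were Klhl38 (0.125), Mbd1 and Rgcc, a looser match than for the other members. Klhl38 had Ctrl values of 7.75, 6.24 and 10.9 and cKO values of 6.33, 2.07 and 5.09 FPKM, with cKO replicate 2 lowest as for Fbxo32. Psme2 (0.0235), Fblim1 and Leng8 were nearest to Trim55 and Ccdc12 (0.0249), Nxf1 and Mrps26 to Trim54. All 6 hearts enter each value, and genes that differ between the groups alike are near each other for that reason alone.

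Shared sequence could let reads of close relatives be assigned to each other. The longest identical stretch between annotated transcripts was 28 bases for Trim63 and Trim54, 17 for Trim63 and Trim55, 16 for Trim54 and Trim55 and 38 for Foxo1 and Foxo3. The reads, by the length given in the study's methods, were longer than each of these. A whole read could therefore not match both genes of a pair exactly. Annotated genes that overlap a member had few reads: at most 41 for Gm15943 (antisense to Fbxo32), 55 for BC002189 (within Trim55), 21 for Gm15469 (antisense to Trim54) and 2 for Gm38034 (in Foxo1). Whether reads were counted by strand was not given in the sources used here.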

How the data were processed

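RNA of 6 mouse hearts (3 Ctrl, 3 cKO, grouped by sample title, which numbers the hearts within each group, so that p-values rest on the spread between these samples) was poly-A selected and sequenced as paired ends. Per the labels the authors aligned reads with HISAT2 2.0.5, counted them per gene with featureCounts 1.5.0-p3, and tested counts with DESeq2 1.16.1. The deposited values are FPKM, which the authors computed from read counts and gene length (the gene length is another deposited value, taken as given). The labels list mm9, but all 54409 identifiers shared with GENCODE mouse release 21 matched it in chromosome and 53499 also in start and end, so coordinates are GRCm38. FPKM times length gave whole reads in 100% of values (within 0.01 read), at 15989322 to 24875499 reads per heart, which for single reads limits precision by counting error. Replicates differed beyond counting noise and were all kept. The mean chi-square per gene was 43.1 and 40.8 for the pairs with cKO replicate 2 and 13.2 to 16.7 for the other pairs.

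Genes averaging 0.5 FPKM or more (12944) were kept, and their log2(FPKM + 1) was fitted with limma 3.58.1 in R 4.3.3 (lmFit, eBayes with trend, no covariates, two-sided), because the unit is not a count. p-values were adjusted by Benjamini-Hochberg over all genes, with a threshold of 0.05, and n is 3 hearts per group throughout. The added 1 FPKM understates changes of low genes. No alternative scaled values by the reads assigned to genes. The median-of-ratios factors of the FPKM values were 0.991 to 1.02 over the hearts, so that scaling by them changed little. The alternatives were no filter, a filter at 1 FPKM, a pseudocount of 0.1, scaling by median of ratios or without mtDNA-encoded genes, eBayes without trend, voom on recovered reads, a replicate block, leaving out each heart, and leaving out Ctrl replicate 1 and cKO replicate 2.

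The members and the 18 gene lists were chosen with earlier results of these data known. Genes named are the members, Mrps5, those of the lists of FOXO factors and myostatin ligands, antagonists and receptors, the up to 4 largest called increases and decreases of each longer list, tissue markers beside a member, and for each member the 3 most alike protein-coding genes averaging 5 FPKM or more. Any other gene is said to have been picked after its values were seen. Some genes that the rule names are not reported here. Promoters came from RefSeq (GRCm38.p6), in which Trim63, Trim54, Foxo1, Foxo3 and Mstn were matched, and Fbxo32, Trim55, Foxo4 and Foxo6 were not.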

Additional observations from a re-analysis of the deposited data

How the results depend on the processing

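Over 15 alternatives no called member changed direction, and 0 members were higher in any. Foxo1 kept its call throughout (log2 fold change -0.74 to -0.47), and Trim55 and Trim54 passed in none. Trim63 missed the threshold with no filter (-0.61, limma adjusted p = 0.0537) and ranged from -0.72 to -0.47 when hearts were left out, missing it without Ctrl replicate 2 or 3. Foxo3 ranged from -1.02 to -0.66 in those fits and missed it without the same hearts. Fbxo32 ranged from -1.18 to -0.42 and passed only without cKO replicate 1. The number of members lower ranged from 1 to 4 when hearts were left out. Over all genes 1396 to 1977 were then higher and 1423 to 2011 lower, with 1396 and 1434 when Ctrl replicate 1 and cKO replicate 2 were both left out. When mtDNA-encoded genes were left out of the scaling, 2649 genes were higher and 1621 lower, 62.0% of calls higher against 48.9% in the reported fit, and the median of all genes moved by 0.06. Of the non-members named as called, 45 in all, 0 to 15 lost the call under an alternative, most of them without Ctrl replicate 3 (15), without Ctrl replicate 2 (14), without Ctrl replicate 1 and cKO replicate 2 together (14) and with no filter (12), and 4 did under the replicate block. Of 540 list counts under alternatives, 469 stayed within 1.5 times the reported count and 71 did not. The replicate numbers did not pair the hearts (correlations of deviations -0.06, 0.17 and -0.01 for numbers 1, 2 and 3, best with its own number for replicate 2 only). The replicate block gave 1874 higher and 1982 lower genes and changed no member's call (adjusted p 0.0408 for Trim63, 0.0109 for Foxo1, 0.0182 for Foxo3 and 0.0970 for Fbxo32). Mstn was fitted only with no filter, and low read numbers limit Mstn and the follistatin gene Fst.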

Other observations

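Some further genes of the lists were chosen after their values were seen, because they are well-known stress or glucocorticoid targets and did not pass the test. Ddit4, for the mTORC1 inhibitor REDD1, had Ctrl values of 86.5, 124 and 147 and cKO values of 107, 47.3 and 71.6 FPKM in replicates 1, 2 and 3 (log2 fold change -0.70, limma adjusted p = 0.127). Fkbp5, a glucocorticoid receptor target, had Ctrl values of 9.48, 17.3 and 14.3 and cKO values of 16.0, 3.67 and 9.27 FPKM (-0.62, adjusted p = 0.332). Pdk4, for a pyruvate dehydrogenase kinase, had Ctrl values of 243, 206 and 301 and cKO values of 345, 127 and 231 FPKM (-0.19, adjusted p = 0.702). Other uncalled FOXO targets differed in the order of the cKO hearts: Gadd45a measured 5.16, 16.1 and 15.4 FPKM in cKO replicates 1, 2 and 3 (adjusted p = 0.781), and Txnip 154, 111 and 96.5 FPKM (adjusted p = 0.882).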
